A study of Mus musculus with 18 samples.

Results

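The genes described here are 9 genes of the circadian clock and its direct outputs: Per1, Per2, Dbp, Tef, Hlf, Nr1d1, Nr1d2, Csnk1e and Clock. They were taken by symbol, as all probe sets to which the array's annotation gives one of these symbols alone, which left 17 probe sets of 22690, and 9 genes of the 12393 with such a probe set. They were followed over every array as a check on time of collection, which the labels do not give. Of the 17 probe sets, 15 were bright enough to be tested; Per2 1417603_at and Tef 1438033_at were not.

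Total RNA from the oculomotor nucleus, the midbrain group of motor neurons that moves the eyes, and from the cervical spinal cord of mice was measured on Affymetrix Mouse Expression Set 430A arrays. The groups were 10-week mutants, 6-week mutants and 10-week controls of the oculomotor nucleus, and the same 3 of the spinal cord, with 3 arrays in each. Every array, controls included, carries the label of a model of amyotrophic lateral sclerosis. The labels name neither the mutation, its promoter, the strain, the sex, the light schedule nor any pooling of animals, and there was no control of 6 weeks. Control spinal cord replicate 1 was left out, since its signals had correlations of only 0.0104 to 0.0143 with those of the remaining 17 arrays, which had 0.957 to 0.985 among themselves. Control spinal cord thus had 2 arrays. Nothing says that arrays came from separate animals, so the tests speak of the spread between these samples alone, which may be technical, and few arrays per group set the precision.

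The mammalian clock is a loop of transcription in which CLOCK and its partner BMAL1 (gene Arntl) switch on the Per and Cry genes, whose proteins return to the nucleus and repress CLOCK and BMAL1. The kinase CSNK1E phosphorylates PER proteins and so sets how long they last, while the nuclear receptors made from Nr1d1 and Nr1d2 (REV-ERB) repress Arntl. DBP, TEF and HLF are transcription activators of the PAR bZIP family that pass the rhythm on to output genes. In many tissues transcripts of Dbp, Nr1d1 and the Per genes swing strongly over the day, while those of Clock and Csnk1e vary little.

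CLOCK and BMAL1 bind the E-box CACGTG, and the PAR bZIP proteins bind D-boxes such as TTATGTAA and TTACGTAA. CREB, which induces Per1 after light, binds the cAMP response element TGACGTCA, and REV-ERB binds elements that hold TAGGTCA. These letters were searched on both strands in RefSeq promoters (mouse assembly GRCm38.p6) that run from 250 bases before a gene's start to 50 after it. Of the 9 genes 8 matched, all but Per2, with 15 promoters. An E-box lay in 3 of them, 1 of Per1 and 2 of Tef, and in 7.15% of all 32851 promoters. The cAMP response element lay in 1 promoter of Hlf and in 1.79% of all. Neither D-box (0.938% and 0.119% of all promoters) nor TAGGTCA (2.61%) lay in any of the 15. No promoter of these genes held more than 1 of these motifs. The 4 stretches of 40 bases that hold a match, which are all that were found, are printed 5′ to 3′ with the motif in capitals. They lie at chr11:69098766-69098805 on the plus strand (Per1), chr15:81802529-81802568 and chr15:81811259-81811298 on the plus strand (Tef) and chr11:90390918-90390957 on the minus strand (Hlf).
Per1 E-box: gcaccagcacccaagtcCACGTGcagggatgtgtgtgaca
Tef E-box, first promoter: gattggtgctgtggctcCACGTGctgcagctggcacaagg
Tef E-box, second promoter: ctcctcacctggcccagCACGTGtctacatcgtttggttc
Hlf cAMP response element: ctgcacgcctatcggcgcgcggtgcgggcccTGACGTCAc
The motif starts 166 bases before the gene's start in Per1, 127 and 138 in Tef and 9 in Hlf. A match is a description of the letters, and binding was not measured.

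The median signals of the 17 arrays lay between 207 and 226. Summed signals of marker genes separated the regions for every list but that of oligodendrocytes, and only narrowly for that of pituitary genes. Midbrain dopamine neuron genes (4 of 4 measured) summed to 5667 to 7591 in the oculomotor nucleus and 709 to 1008 in spinal cord, and the serotonin transporter gene Slc6a4 (1 of 3) had 710.4 to 2640.1 in the oculomotor nucleus and 6.7 to 18.8 in spinal cord. Hox genes of the spinal cord (5 of 5) summed to 127 to 346 in the oculomotor nucleus and 5092 to 6443 in spinal cord. Motor neuron genes (3 of 4, with Chat unmeasured) were low in the region named for a motor nucleus, at 379 to 575 in the oculomotor nucleus and 1264 to 1615 in spinal cord. Oligodendrocyte genes (4 of 5) summed to 25068 to 47201 in the oculomotor nucleus and 35262 to 54384 in spinal cord. Microglial genes (5 of 5) summed to 3072 to 3571 in the oculomotor nucleus and 4543 to 6927 in spinal cord, and meningeal genes (5 of 5) to 1112 to 1667 in the oculomotor nucleus and 3449 to 7181 in spinal cord. Pituitary genes (5 of 5) ran from 541 to 23476 in the oculomotor nucleus, high on 10-week mutant replicate 2 and control replicate 3, and from 341 to 518 in spinal cord. The part of these cell types in the regional values that follow was not tested.

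Averaged over the 3 conditions, Hlf, Csnk1e, Per1, Per2 and Clock had higher signals in the oculomotor nucleus than in spinal cord. Of the 15 tested probe sets, 7 passed the test as higher in the oculomotor nucleus, from these 5 genes, and 0 as lower (limma on log2(signal + 25), Benjamini-Hochberg adjusted p under 0.05 over 13575 probe sets; at an unadjusted p under 0.05, 8 were higher and 0 lower). Of all probe sets tested, 20% passed as higher in this comparison and 17.7% as lower, 37.7% in all. At an unadjusted limma p under 0.05 the share of all tested was 46.5%, both directions together. The median log2 fold change, oculomotor nucleus minus spinal cord, was 0.20 over the 15 and 0.02 over all tested. In whole pieces of tissue, fewer cells of a type and less RNA per cell cannot be told apart.

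The period genes encode the repressors of the loop. In the oculomotor nucleus Per1 (1449851_at) had signals of 605, 648 and 687 in 10-week mutants, 634, 768 and 402 in 6-week mutants and 767, 730.3 and 764.5 in 10-week controls. In spinal cord it had 270.1, 422 and 515 in 10-week mutants, 367, 490.5 and 448.5 in 6-week mutants and 394 and 563 in controls. All oculomotor arrays but one, replicate 3 of the 6-week mutants, lay above every spinal cord array. Per1 was higher in the oculomotor nucleus by a log2 fold change of 0.58 ± 0.13 (SE; limma adjusted p = 0.00125). Per2 (1417602_at) had 136.5 to 238 in the oculomotor nucleus, with a median of 174.5, and 84.2 to 171 in spinal cord, with a median of 124. The regions overlapped. Its log2 fold change was 0.45 ± 0.13 (limma adjusted p = 0.00991), and 0.32 with adjusted p = 0.0650 without control spinal cord replicate 2. The mean over all arrays was 7.45 on the log2 scale, just over the limit of 7.38 for testing. Group means were 7.09 to 7.36 in spinal cord, under that limit, and 7.60 to 7.78 in the oculomotor nucleus. Per2 was thus tested on this probe set only through the region where it was high. Its dimmer probe set, 1417603_at, had 99.3 to 174 in the oculomotor nucleus and 51.4 to 124 in spinal cord, and was not tested.

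Of the PAR bZIP activators, Hlf had the largest regional difference of all the clock genes tested. Its probe set 1434736_at had 863, 734 and 733 in the oculomotor nucleus of 10-week mutants, 1059, 1171 and 821 in 6-week mutants and 877, 899.8 and 827 in 10-week controls. In spinal cord it had 461, 528 and 542 in 10-week mutants, 695, 611.5 and 590.5 in 6-week mutants and 500.3 and 506 in controls. All 9 oculomotor arrays lay above all 8 spinal cord arrays, as in 3.89% of all probe sets tested. The log2 fold change was 0.66 ± 0.07 (limma adjusted p = 7.30e-07). The other probe set, 1434735_at, ran from 550.5 to 959.9 in the oculomotor nucleus and from 497 to 693 in spinal cord, where the regions overlapped, and gave 0.30 ± 0.08 (limma adjusted p = 0.00656). The estimates of the 2 probe sets thus differed in size and agreed in sign.

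Neither Dbp nor Tef passed the test for the mean of the conditions. Dbp 1438211_s_at ranged from 357 to 721 in the oculomotor nucleus, with a median of 535, and from 348.5 to 792 in spinal cord, with a median of 499.7; the suffix s marks probes that match several transcripts. Its log2 fold change was 0.05, with a 95% interval of -0.16 to 0.25, and that of Dbp 1418174_at was 0.04, with an interval of -0.14 to 0.23. Tef 1424175_at had 2129 to 3059 in the oculomotor nucleus and 2118 to 2501 in spinal cord (0.13 ± 0.06; limma adjusted p = 0.0758; 0.16 and 0.0466 without both arrays on which the pituitary hormone genes were high, 10-week mutant oculomotor replicate 2 and control oculomotor replicate 3). It also passed without control oculomotor replicate 3 alone (0.16; 0.0362) or 6-week mutant oculomotor replicate 1 (0.15; 0.0482. Tef 1450184_s_at gave 0.11 ± 0.11 (limma adjusted p = 0.466). The dim probe set Tef 1438033_at had 72.4 to 184 in the oculomotor nucleus and 59.7 to 109.9 in spinal cord.

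The REV-ERB genes, repressors of Arntl, showed no regional difference that passed the test. Nr1d1 (1426464_at) had 343 to 500.9 in the oculomotor nucleus and 307 to 536.5 in spinal cord, with medians of 415 and 443. Its log2 fold change was -0.01, with a 95% interval of -0.22 to 0.20. Nr1d2 1416958_at had the smallest ratio of highest to lowest array of the 15 (1.28), with 2039.8 to 2506.5 in the oculomotor nucleus and 2074 to 2610.3 in spinal cord. It gave -0.03 (95% interval -0.14 to 0.09), and the dimmer Nr1d2 1416959_at gave 0.20 (-0.05 to 0.46; limma adjusted p = 0.203).

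The kinase gene Csnk1e was higher in the oculomotor nucleus on both of its probe sets. Csnk1e 1417175_at had 828, 906 and 847 in the oculomotor nucleus of 10-week mutants, 825, 682 and 712 in 6-week mutants and 931, 1011 and 812 in controls. In spinal cord it had 674, 601.5 and 578.5 in 10-week mutants, 622, 608 and 475 in 6-week mutants and 566 and 654 in controls. The lowest oculomotor array (682.0) thus lay just above the highest spinal cord array (674.2), an order seen in 3.89% of all probe sets tested. The log2 fold change was 0.47 ± 0.07 (limma adjusted p = 4.12e-05), and 0.34 ± 0.06 (adjusted p = 3.89e-04) on 1417176_at, where the regions ran from 857 to 1192 in the oculomotor nucleus and from 703 to 932 in spinal cord.

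Clock itself, the activator of the loop, gave different values on its 2 probe sets. Clock 1418660_at had 448 to 626 in the oculomotor nucleus and 362 to 541 in spinal cord, with medians of 539 and 455, and was higher by 0.22 ± 0.07 (limma adjusted p = 0.0254). That call was lost without control oculomotor replicate 2 (0.19; adjusted p = 0.0548), control spinal cord replicate 3 (0.18; 0.0964) or 10-week mutant oculomotor replicate 1 (0.17; 0.0567). Clock 1418659_at gave -0.03, with a 95% interval of -0.27 to 0.21.

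**Figure D1:**
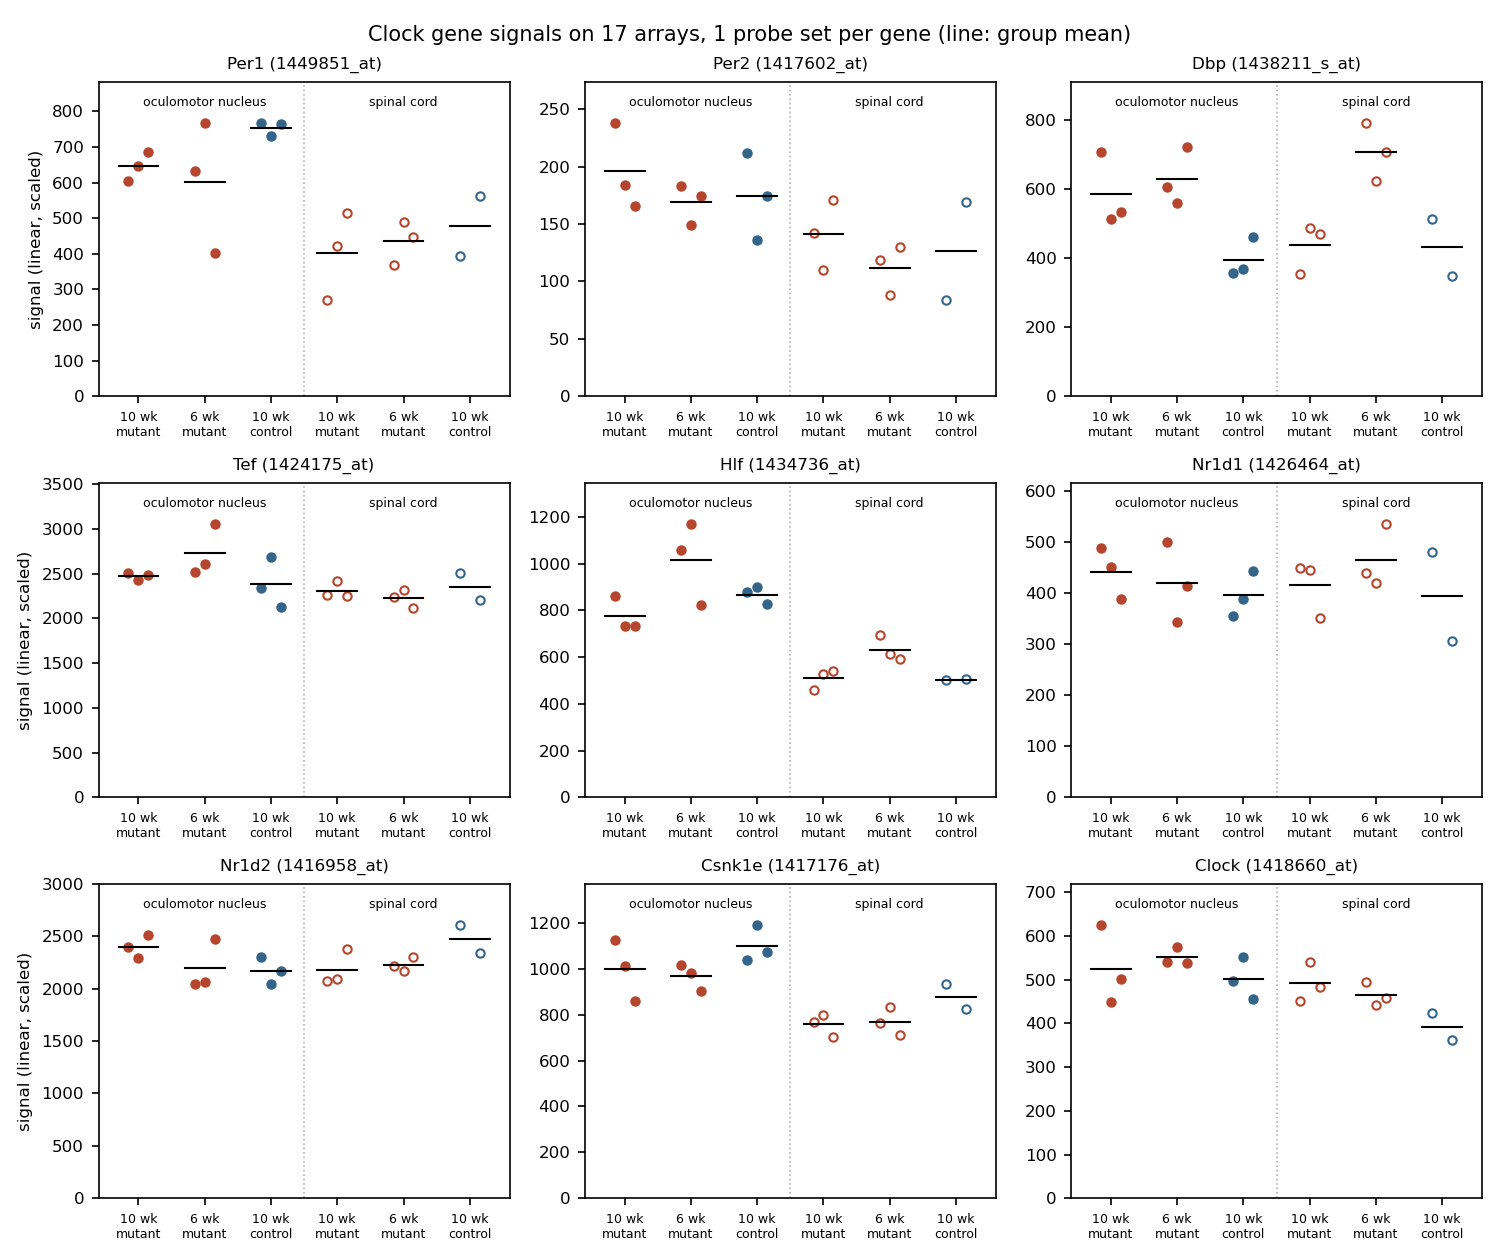
Signal (linear, scaled by the authors) of 1 probe set per clock gene on each of 17 arrays, with a line at each group's mean; filled points are oculomotor nucleus, open points spinal cord, red mutants and blue controls. The regions are fully apart for Hlf, overlap by 1 oculomotor array for Per1, and share their range for Dbp, Nr1d1 and Nr1d2, while Dbp is highest in 6-week mutant spinal cord.

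Within single conditions fewer probe sets passed, and Per2 and Clock passed in none. Of all tested, 36.3% had an unadjusted limma p under 0.05 in 6-week mutants, 32.7% in 10-week mutants and 26.8% in 10-week controls. In 6-week mutants 5 of the 15 probe sets passed as higher in the oculomotor nucleus and 0 as lower (12.2% of all tested passed as higher and 11.7% as lower, 23.9% in all; at an unadjusted p under 0.05, 6 and 0 of the 15). These were Hlf 1434736_at (0.65 ± 0.12), Hlf 1434735_at (0.38 ± 0.13), Csnk1e 1417175_at (0.37 ± 0.12), Csnk1e 1417176_at (0.32 ± 0.11) and Tef 1424175_at (0.28 ± 0.10). With each array centred on its median, Hlf 1434736_at alone passed, and the split of all calls moved to 1251 higher and 1897 lower, against 1656 and 1583. In 10-week mutants 4 passed as higher and 0 as lower (9.3% of all tested passed as higher and 9.99% as lower, 19.3% in all; unadjusted, 5 and 0). They were Hlf 1434736_at (0.58 ± 0.12), both Csnk1e probe sets (0.46 ± 0.12 and 0.38 ± 0.11) and Per1 (0.69 ± 0.21; limma adjusted p = 0.0266). Without both arrays on which the pituitary hormone genes were high, Per1 gave 0.69 with an adjusted p of 0.0752 and Csnk1e 1417176_at 0.37 with 0.0657, so that 2 of the 4 calls were lost. In 10-week controls Hlf 1434736_at (0.76 ± 0.13; limma adjusted p = 7.87e-04) and Csnk1e 1417175_at (0.57 ± 0.13; 0.0070) passed as higher and 0 as lower (6.62% of all tested passed as higher and 6.94% as lower, 13.6% in all; unadjusted, 6 and 0).

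Hlf 1434736_at passed in each of these 3 comparisons whichever array was left out, with log2 fold changes of 0.51 to 0.80. The other calls within single conditions were less stable. Csnk1e 1417175_at was lost at 6 weeks without oculomotor replicate 1 or spinal cord replicate 3 (lowest 0.25) and in controls without spinal cord replicate 2 (0.47; adjusted p = 0.122). Per1 in 10-week mutants was lost without any of the 3 oculomotor arrays (0.74, 0.69 and 0.65 without replicates 1, 2 and 3) or spinal cord replicate 1 (0.45; adjusted p = 0.158). Tef 1424175_at was lost without any of 5 of the 6 arrays compared, and Hlf 1434735_at without any of 11 arrays. Csnk1e 1417176_at was lost without any of 4 arrays at 6 weeks and any of 3 in 10-week mutants. Whether the regional differences varied with genotype or age was tested directly, as given below, and no clock probe set passed.

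Between mutants and controls of 10 weeks, no clock gene passed the test. The count was 0 of 15 in the oculomotor nucleus (1.47% of all tested passed, 1.04% as higher and 0.435% as lower; 1 of the 15 at an unadjusted p under 0.05), 0 in spinal cord (0.0221%, with 0.0147% higher and 0.00737% lower; 1 unadjusted) and 0 for the mean of both regions (3.21%, with 2.05% higher and 1.16% lower; 2 unadjusted). With median centring the split of all calls for the mean of both regions was 217 higher and 221 lower, against 278 and 158. For the difference between the regions in the genotype effect it was 0 of 15 and 0% of all tested (1 unadjusted). Of all tested, 14.9% had an unadjusted limma p under 0.05 in the oculomotor nucleus and 11.7% in spinal cord. That share was 19.2% for the mean of both regions and 6.15% for the difference between them. The median log2 fold change of the 15 for the mean of both regions was -0.02, against -0.0032 for all tested. For that mean the 95% intervals of the 15 all lay between -0.57 and 0.54 on the log2 scale.

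The lowest adjusted p among these was that of Dbp in the oculomotor nucleus. Dbp 1438211_s_at had 708, 514.5 and 535 in mutant oculomotor nucleus and 357, 369 and 460.4 in control oculomotor nucleus, so that every mutant array lay above every control array, as in 11.7% of all probe sets tested. The log2 fold change, mutant minus control, was 0.53 ± 0.16 (limma adjusted p = 0.107). Spinal cord had 354.5, 486 and 469 in mutants and 513 and 348.5 in controls, with overlap and a log2 fold change of 0.03 ± 0.18. The difference between the regions in this effect was 0.50 ± 0.25 (limma adjusted p = 0.818). On Dbp 1418174_at the oculomotor value was 0.24 ± 0.15 (limma adjusted p = 0.480), with 537, 466 and 521 in mutants and 383, 449 and 448 in controls, again without overlap.

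The other clock genes showed smaller values. Per1 was -0.22 ± 0.21 in the oculomotor nucleus, where all 3 mutant arrays lay below all 3 controls, as in 12.3% of all tested, and -0.26 ± 0.24 in spinal cord. Clock 1418660_at gave 0.31 ± 0.14 in spinal cord (limma adjusted p = 0.385), with 451, 541 and 482 in mutants and 423 and 362 in controls. For the mean of both regions, Csnk1e 1417176_at gave -0.18 ± 0.08 (limma adjusted p = 0.242) and Nr1d1 0.12 ± 0.12. Hlf gave -0.07 ± 0.09 and 0.02 ± 0.10 on its probe sets.

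**Figure D2:**
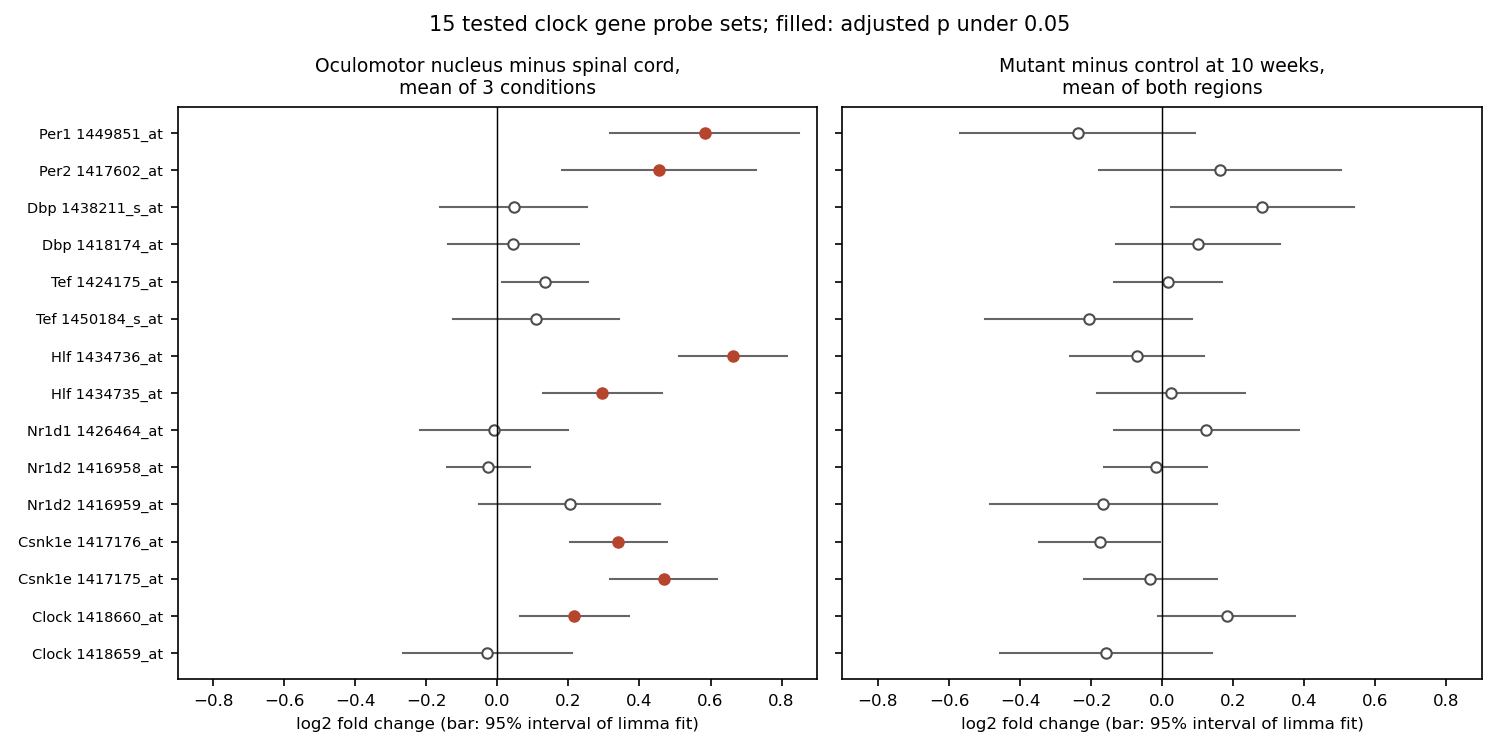
Log2 fold changes of the 15 tested clock gene probe sets for oculomotor nucleus minus spinal cord (left, mean of 3 conditions) and for mutant minus control at 10 weeks (right, mean of both regions); points are estimates, bars 95% intervals of the limma fit, and filled points have an adjusted p under 0.05. On the left 7 points are filled, all above 0, led by Hlf 1434736_at at 0.66; on the right no point is filled and Dbp 1438211_s_at is highest at 0.28.

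Between the ages of the mutants, Dbp in spinal cord was the only clock gene that passed the test, and on probe set 1438211_s_at alone. Failing the test does not show that the other clock genes stayed the same. Dbp 1438211_s_at had 354.5, 486 and 469 in the spinal cord of 10-week mutants and 792, 624 and 706 in that of 6-week mutants, with no overlap (all lower in 10.2% of all tested). It fell by 0.67 on the log2 scale, 10 weeks minus 6 weeks, with an SE of 0.16 (limma adjusted p = 0.0359). In all, 1 of the 15 passed, as lower, and 0 as higher (0.972% of all tested passed as lower and 1.78% as higher, 2.76% in all; at an unadjusted p under 0.05, 2 lower and 0 higher). Of all tested, 20.2% had an unadjusted limma p under 0.05 there. With median centring, which left the Dbp call in place, the split of all calls was 129 higher and 298 lower, against 242 and 132. The other probe set, Dbp 1418174_at, had 479, 426 and 382 at 10 weeks and 538, 432 and 557 at 6 weeks, which overlap, and gave -0.23 ± 0.15 (limma adjusted p = 0.392). The call was lost without any of the 3 arrays of 6 weeks (adjusted p = 0.130, 0.0624 and 0.0714 without replicates 1, 2 and 3) and without 10-week replicate 1 (-0.54; 0.140) or 3 (-0.73; 0.0554). It was also lost with no filter on dim probe sets (0.0620) and in a fit of those 6 arrays alone (0.0824).

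In the oculomotor nucleus Dbp 1438211_s_at had 708, 514.5 and 535 at 10 weeks and 607, 560.0 and 721 at 6 weeks, with a log2 fold change of -0.11 ± 0.16. The difference between the regions in the age effect, a contrast chosen after seeing the data, was 0.57 ± 0.23 (limma adjusted p = 0.238), and no other clock probe set had a lower adjusted p there. By group mean, Dbp 1438211_s_at was highest in 6-week mutant spinal cord, then in 6-week and 10-week mutant oculomotor nucleus, 10-week mutant and control spinal cord and control oculomotor nucleus. Neighbours in that order shared part of their range, except 10-week mutant oculomotor nucleus above 10-week mutant spinal cord (all higher in 17.8% of all tested). That pair gave 0.40 ± 0.16 (limma adjusted p = 0.0951). On Dbp 1418174_at the mean was 509 in 6-week mutant spinal cord and 508 in 10-week mutant oculomotor nucleus. It was 493 in 6-week mutant oculomotor nucleus and 427 to 438 in the other groups, so the order differed.

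In the oculomotor nucleus 0 of 15 probe sets passed between 10 and 6 weeks (0.0221% of all tested passed). At an unadjusted limma p under 0.05 there were 2 of the 15, beside 8.82% of all tested. These 2 probe sets were both of the same gene, Hlf, which is a relative of Dbp. Hlf 1434735_at had 657, 636 and 660.5 at 10 weeks and 917, 959.9 and 759 at 6 weeks, with no overlap (all lower in 7% of all tested), and gave -0.41 ± 0.13 (limma adjusted p = 0.324). Hlf 1434736_at gave -0.37 ± 0.12 (0.335), with overlap. In spinal cord they gave -0.19 ± 0.13 (0.446) and -0.30 ± 0.12 (0.181). All 4 Hlf values lay below 0, and none passed the test.

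**Figure D3:**
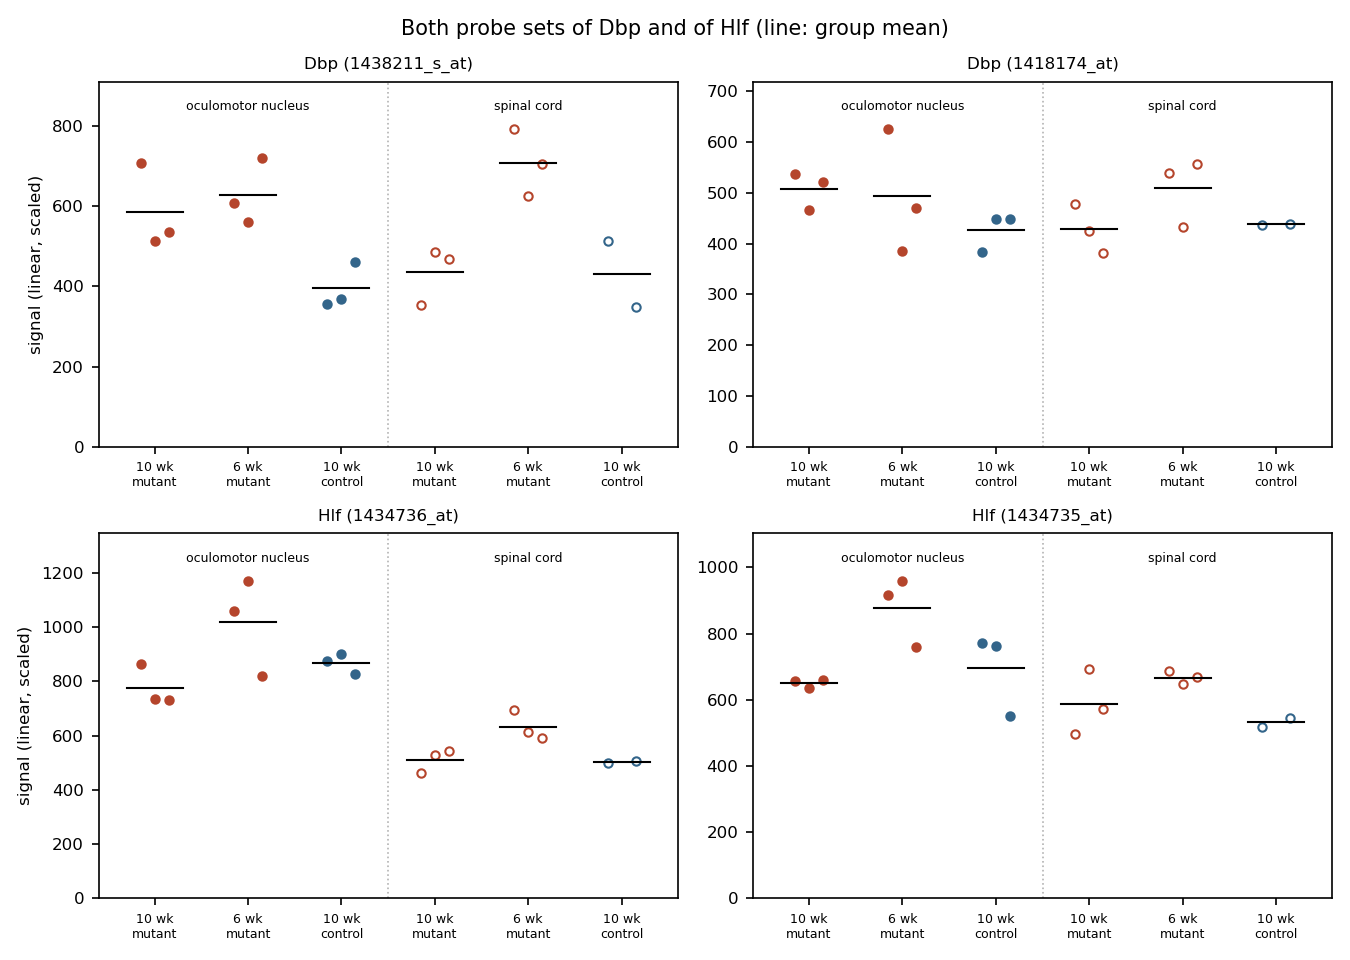
Signal of both probe sets of Dbp (top) and of Hlf (bottom) on each array, with a line at each group's mean; filled points are oculomotor nucleus, open points spinal cord, red mutants and blue controls. In spinal cord, Dbp 1438211_s_at was at 354.5 to 486 in 10-week mutants and 624 to 792 in 6-week mutants, a gap that Dbp 1418174_at did not show, while the Hlf probe sets were higher in the oculomotor nucleus.

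The spread within groups differed widely among the clock genes. The median SD between arrays of a group was 0.189 on the log2 scale over the 15 probe sets and 0.166 over all tested, and 9 of the 15 lay above that median of all. Per1 varied most of the 15, with an SD of 0.307 (percentile 93.7 among all tested) and a ratio of 2.85 between its highest array (768, 6-week mutant oculomotor nucleus) and its lowest (270.1, 10-week mutant spinal cord). Nr1d2 1416958_at varied least, with an SD of 0.0999 (percentile 9.4) and a ratio of 1.28. Nr1d2 1416959_at, Per2 1417602_at, Clock 1418659_at and Tef 1450184_s_at lay at percentiles 92, 91.6, 88 and 87.6. Among the strongly rhythmic genes, Dbp 1438211_s_at had an SD of 0.225 (percentile 77.8) and Nr1d1 one of 0.223 (percentile 77.2). The other Dbp probe set, 1418174_at, had 0.189 (percentile 63.0).

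Probe sets of 1 gene did not all follow each other. The deviations from the group means of the 2 Hlf probe sets had a correlation of 0.628 over the 17 arrays, and those of Csnk1e and Per2 0.302 and 0.295. For Dbp it was 0.168, for Clock 0.052 and for Nr1d2 -0.143. The brightest 2 probe sets of Tef gave 0.082. The dim Tef 1438033_at gave -0.291 with 1424175_at and -0.504 with 1450184_s_at. These values describe 17 arrays, and the second Per2 probe set and Tef 1438033_at were below the limit for testing.

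No pair of clock genes deviated together from array to array past the test. With 1 probe set per gene, the one with the highest mean, 36 pairs were compared by an exact two-sided permutation test within groups, and 0 had an adjusted p under 0.05 for Pearson's r or for Spearman's rho (3 at an unadjusted p under 0.05 for r). Of the 36 correlations 20 were above 0 and 16 below, with a median of 0.045 and a range of -0.54 to 0.572. Hlf and Clock had the smallest p (r = 0.572, permutation p = 0.00463; rho = 0.632, p = 0.00977; adjusted p = 0.167 and 0.352), and r = 0.719 without the 2 arrays farthest out in Hlf. Per1 and Hlf had r = 0.571 (permutation p = 0.127, adjusted 0.564; rho = 0.387, p = 0.240), which dropped to 0.168 without the 2 arrays farthest out in Per1. Per1 and Per2, which oscillate together in many tissues, had r = 0.118 (permutation p = 0.699, adjusted 0.909; rho = 0.137, p = 0.710). Dbp and Nr1d1 had r = 0.487 (permutation p = 0.191, adjusted 0.570; rho = 0.505, p = 0.156), which was 0.329 without the 2 arrays farthest out in Dbp. Dbp and Per1 had r = -0.258 (permutation p = 0.415, adjusted 0.879; rho = -0.380, p = 0.242). Within groups of 3 arrays the deviations have few degrees of freedom, and these values do not show that the genes vary independently.

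**Figure D4:**
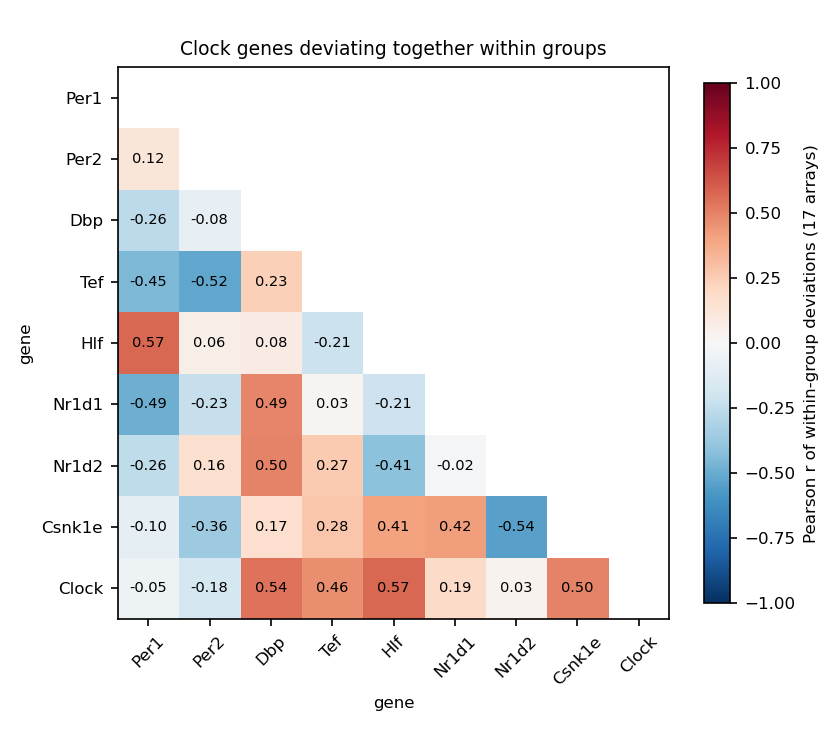
Pearson correlations of within-group deviations between 9 clock genes, 1 probe set each, over 17 arrays; red cells are above 0 and blue cells below. Values run from -0.54 (Nr1d2 with Csnk1e) to 0.57 (Hlf with Clock and with Per1), with 20 of 36 above 0.

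The genes whose deviations were most like those of Dbp 1438211_s_at over the 17 arrays were Vps29 (r = 0.888), Hps3 (0.863), Ankhd1, Cbarp and Hibch (0.856 each), and the lowest were Gpx3 (-0.867), Gsto1 (-0.863) and Strada (-0.86). For Per1 the highest were P3h3 (0.868), Prpf8 (0.84), Mrm1 (0.838), Map3k7 (0.835) and Zfp91 (0.834), and the lowest Mvd (-0.891), Snapin (-0.857) and Tlr3 (-0.852). The closest clock gene to Dbp was Clock (0.543), and the closest to Per1 was Hlf (0.571). These are the ends of 13575 correlations and are given as a description.

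Of 18 other clock genes 10 were tested; Npas2, Cry1, Nfil3, Bhlhe41 and Timeless were too dim, and the rest were not analysed here. For the mean regional difference, Per3 (0.33 ± 0.07; limma adjusted p = 0.00136), the repressor Cry2 (0.31 ± 0.11; 0.0329) and Rora (0.30 ± 0.09; 0.00930), which activates Arntl, passed as higher in the oculomotor nucleus. The kinase genes Csnk1d (-0.17 ± 0.05; 0.0171) and Csnk1a1 (-0.18 ± 0.06; 0.0282) passed as lower, opposite in sign to Csnk1e. The 3 higher and 2 lower of 10 stand beside 20% and 17.7% of all tested. The median of the 10 was 0.05. In 6-week mutants alone Per3 (0.59 ± 0.12) and Rora (0.45 ± 0.14) passed as higher and Csnk1a1 (-0.31 ± 0.10) as lower (12.2% and 11.7% of all tested), and in 10-week mutants and 10-week controls 0 of 10 passed in either direction (limma; 1 and 3 at an unadjusted p under 0.05). Of all tested, 32.7% in 10-week mutants and 26.8% in 10-week controls had such an unadjusted p.

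Between mutants and controls, Csnk1d was the one of these 10 that passed, with 0.27 ± 0.07 for the mean of both regions (limma adjusted p = 0.0347). Of all tested, 2.05% passed as higher there and 1.16% as lower. How the Csnk1d call depends on single arrays or on the processing was not tested. The median of the 10 was -0.01. Arntl, the partner of Clock that runs in opposite phase to Dbp and the Per genes in many tissues, passed in no comparison. Its signals were 268 to 483 in the oculomotor nucleus and 267 to 376 in spinal cord, and its mean regional value was 0.07 ± 0.09. In the oculomotor nucleus it gave -0.36 ± 0.15 for mutant minus control (limma adjusted p = 0.270). Per3 had 279, 281.5 and 301 in the spinal cord of 10-week mutants and 228, 208 and 181 in that of 6-week mutants, with no overlap (all higher in 13.4% of all tested). The log2 fold change was 0.44 ± 0.12 (limma adjusted p = 0.0587), above 0 where Dbp was below. Between the ages 0 of the 10 passed in either region (limma; at an unadjusted p under 0.05, 1 in the oculomotor nucleus and 2 in spinal cord). Of all tested, 8.82% and 20.2% had such an unadjusted p, in that order.

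Lists of genes that other stimuli move were set beside the clock genes. Of 6 clock output genes 3 were tested, and Usp2, a deubiquitinase that cycles in many tissues, was the one that passed, as higher in the oculomotor nucleus (0.26 ± 0.08; limma adjusted p = 0.0127). Of 9 genes induced by glucocorticoids, hormones that peak daily and reset Per1 in many tissues, all 9 were tested and 6 were lower in the oculomotor nucleus, where 17.7% of all tested were called lower and 20% higher. They were Errfi1 (-0.99 ± 0.08), Cdkn1a (-0.96 ± 0.16), Pdk4 (-0.70 ± 0.10), Mt2 (-0.46 ± 0.10), Tsc22d3 (-0.31 ± 0.08) and Fkbp5 (-0.23 ± 0.08), opposite in sign to Per1. The median of the 9 was -0.31. Of 7 tested genes linked to temperature, of 8, the cold-inducible RNA-binding protein gene Cirbp (0.42 ± 0.12) and the chaperone gene Dnajb1 (0.35 ± 0.12) were higher in the oculomotor nucleus and the small heat shock protein gene Hspb1 (-1.40 ± 0.10) lower. Between mutants and controls, and between the ages, 0 genes of these 3 lists passed (limma; at an unadjusted p under 0.05 in any of those contrasts, 1 of the 3 outputs, 4 of the 9 glucocorticoid-induced and 2 of the 7 temperature-linked genes). Of all tested, 6.15% to 20.2% had such a p in each single contrast, and the share over any of them was not counted.

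Genes induced by neuronal activity, which Per1 also is, passed in no comparison (limma, 8 of 10 tested). For age in the oculomotor nucleus 3 of the 8 had an unadjusted p under 0.05, as had 8.82% of all tested. For the genotype by region difference 1 had (6.15% of all tested). For the regional difference in 10-week controls 1 had (26.8%), and in every other contrast 0. For 10 weeks minus 6 weeks in the oculomotor nucleus, Nr4a1 gave 0.70 ± 0.17 (limma adjusted p = 0.153), Fos 0.87 ± 0.27 (0.290) and Egr1 0.66 ± 0.21 (0.319). Per1 gave 0.14 ± 0.21 there. The median of the 8 was 0.23, against 0.00098 for all tested.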

How the data were processed

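Per the submitters' processing notes, signals came from MAS5 (Affymetrix Microarray Suite 5.0). The deposited values are an intensity per probe set on a linear scale, scaled by the authors so that each array has about the same trimmed mean; no log or between-array step of the authors' is recorded in the sources used here. Gene symbols are those of the platform annotation, and promoters those of RefSeq on GRCm38.p6. The values became log2(signal + 25). Probe sets in the lowest 40% by mean (limit 7.38 on the log2 scale) were dropped, which kept 13575 probe sets of 8072 genes. Fold changes on this scale understate those of dim probe sets. The limma package (3.58.1, under R 4.3.3) gave group means over 17 arrays and 10 contrasts, using eBayes with a trend and 11 residual degrees of freedom. Benjamini-Hochberg adjustment ran over all probe sets of a contrast, and a probe set was called at an adjusted p under 0.05. The fit was tested on simulated data in which 200 of 13575 probe sets changed by 0.5 on the log2 scale. It recovered 85.4% of them for the mean regional difference and 66.4% for the mean genotype difference. For the age difference in spinal cord it recovered 35.3%. False calls were 4.95%, 4.87% and 4.98% of all calls, in that order. Replicate numbers were checked for pairing. Deviations of arrays with the same number had correlations of -0.102 to 0.13 (median 0.0217). Those of arrays with other numbers had -0.156 to 0.156 (median -0.0194). Deviations within such small groups cannot tell whether arrays with the same number share an animal. No pairing was used in the main fit.

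Replicate 1 of the control spinal cord was dropped, since its values are not tied to its probe sets as on the other arrays. All 9 clock genes are named with every probe set. Of the other lists (other clock genes, clock outputs, glucocorticoid-induced, temperature-linked and activity-induced genes, 1 probe set per gene), genes that passed and up to 4 with the smallest p per contrast could be named. Genes like Dbp and Per1 are the 5 highest and 3 lowest correlations of within-group deviations. The members and lists were chosen with earlier results of these data known. Alternatives were quantile normalization, median centring, other offsets, filters and fits, all 18 arrays, the replicate block, single arrays left out, and the submitters' kind of rule (a mean difference above 2-fold, with the same sign in every pair of arrays). The age-by-region contrast was added after seeing the data.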

Additional observations from a re-analysis of the deposited data

How the results depend on the processing

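Counts are of the 15 tested clock gene probe sets called by limma. In 6-week mutants the regional count of 5 was 1 with median centring, 3 without a trend, 2 with only the arrays compared, 0 by the submitters' kind of rule and 0 with all 18 arrays. In 10-week controls the count of 2 was 0 by that rule and 1 with all 18 arrays, and in 10-week mutants the count of 4 was 0 by that rule, 0 with all 18 arrays and 2 without both arrays on which the pituitary hormone genes were high. The mean regional count of 7 was 4 with all 18 arrays. The age count of 1 in spinal cord was 0 without a filter, with only the arrays compared, by that rule and with all 18 arrays. With all 18 arrays, calls over all probe sets in 6-week mutants were 310, against 3239. With single arrays left out, the regional counts were 2 to 5 in 6-week mutants, 1 to 3 in controls, 2 to 4 in 10-week mutants and 6 to 8 for the mean. The age count in spinal cord was 0 to 1. The genotype counts, the oculomotor age count and the pair correlation count were 0 to 0. The count of 5 became 2 without 6-week oculomotor replicate 1 or 6-week spinal cord replicate 1 or 3, and 3 without replicate 2 of either. The count of 4 became 2 without 10-week mutant oculomotor replicate 1 or 2, and the control count 1 without control spinal cord replicate 2. No direction of a called value reversed in any of these settings. Whether the replicate numbers pair samples is not given by the labels. With the replicate block the regional counts were 6 in 6-week mutants, 2 in controls, 4 in 10-week mutants and 7 for the mean. They were 0 for genotype, 0 for age in the oculomotor nucleus and 1 for age in spinal cord. The causes of these changes were not tested. Signal over background limits the dim Per2 and Tef probe sets, and 3 arrays a group limit the rest.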
